A study of Mus musculus with 12 samples.

Results

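HOXA13 bound 11038 autosomal sites at which no HOXD13 peak was called, in the distal part of forelimb buds of wild-type mouse embryos at E11.5, mid-gestation. The sites were chosen by the HOXA13 and HOXD13 peak calls themselves: each is a HOXA13 peak of the authors' list that shares not 1 bp with any HOXD13 peak, called HOXA13-alone here. They made up 36.0% of the 30657 autosomal HOXA13 peaks, and the other 19619 are called shared. The chromatin of both classes was read from peak lists of H3K27ac and H3K27me3, made by chromatin immunoprecipitation and sequencing (ChIP-seq) from distal forelimbs of Hoxa13-/-;Hoxd13-/- embryos (called the double mutant) and of wild-type embryos, all E11.5 and of a mixed C57BL/6 and CD1 background. The double mutant carries a neomycin cassette in the coding region of Hoxa13 and a lacZ reporter in exon 1 of Hoxd13. It lacks both proteins, so the loss of HOXA13 by itself was not measured. Each of these lists comes from 1 library, so no difference between genotypes has a replicate check and no p-value is given. The labels do not say whether embryos were pooled. Positions are on mm9 and count from 1. Only autosomal peaks were used, which left 37433 double-mutant and 31220 wild-type H3K27ac peaks, 18973 double-mutant and 19624 wild-type H3K27me3 peaks, and 22372 HOXD13 peaks.

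HOXA13 and HOXD13 are the terminal members of the HoxA and HoxD clusters that act in the autopod, the part of the limb bud that forms the wrist and digits. Limbs that lack both proteins fail to form digits, while loss of 1 of them is milder, since the proteins overlap in function. Both bind DNA through a homeodomain. H3K27ac is deposited by the acetyltransferases p300 and CBP and marks active enhancers and promoters. H3K27me3 is deposited by Polycomb repressive complex 2 and covers silenced developmental genes, and a single histone tail cannot carry both marks at that residue.

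HOXA13-alone peaks were mostly among the weaker HOXA13 peaks. The score of a peak is the authors' own value from the peak caller, read here as a p-value turned to decimal logarithms and multiplied by -10, and it is comparable only within 1 list. Scores of HOXA13-alone peaks ran from 50.0 to 1922 with a median of 75.3, while those of shared peaks ran from 50.0 to 3211 with a median of 201. Scores under 100 were held by 8106 HOXA13-alone peaks (73.4%), against 3981 shared peaks (20.3%), and only 77 HOXA13-alone peaks reached 300. The HOXA13-alone share of all HOXA13 peaks was 79.5% in the lowest score decile, 43.1% in the fifth decile and 0.0978% (3 of 3066 peaks) in the highest. These values follow from how the sites were chosen and are given as a description. A site bound by HOXA13 without HOXD13 and a site whose HOXD13 signal stayed under the calling threshold cannot be told apart in these lists. HOXA13 chromatin was also cross-linked with disuccinimidyl glutarate, an agent that bridges proteins and that was not used for HOXD13, per the labels' protocols.

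At the edge of the rule stood 47 HOXA13-alone peaks with a HOXD13 peak within 100 bp and 29 shared peaks with 100 bp or less in common. Their median HOXA13 scores were 71.3 and 76.8. Wild-type H3K27ac covered 24 of these 47 HOXA13-alone peaks (51.1%) and 16 of the 29 shared peaks (55.2%). Another 1484 shared peaks met only HOXD13 peaks that scored under 60, close to the lowest score of the list, and 31.7% of them lay in wild-type H3K27ac.

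Fewer HOXA13-alone peaks than shared peaks lay in H3K27ac, in both genotypes and across the whole range of HOXA13 scores they share. In the double mutant, 2970 HOXA13-alone peaks (26.9%, Wilson 95% interval 26.1 to 27.7%) overlapped an H3K27ac peak by at least 1 bp, against 7411 shared peaks (37.8%, 37.1 to 38.5%), and over all autosomal HOXA13 peaks the share was 33.9%. In wild type, 2857 HOXA13-alone peaks (25.9%, 25.1 to 26.7%) were in H3K27ac, against 8589 shared peaks (43.8%, 43.1 to 44.5%), with 37.3% over all autosomal HOXA13 peaks. Because the classes differ in HOXA13 score, shared peaks were weighted over 20 score bins to the score distribution of the HOXA13-alone peaks. The matched shared peaks then had 33.8% in double-mutant H3K27ac and 36.0% in wild-type H3K27ac. The difference, HOXA13-alone minus matched shared, was -6.92 percentage points in the double mutant (95% interval -8.41 to -5.44) and -10.1 points in wild type (-11.6 to -8.64). Intervals cover the counting of peaks only, not the spread between embryos, and treat neighbouring peaks as independent. In these bulk libraries, a mark in fewer cells and less of it in each cell cannot be told apart.

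**Figure D1:**
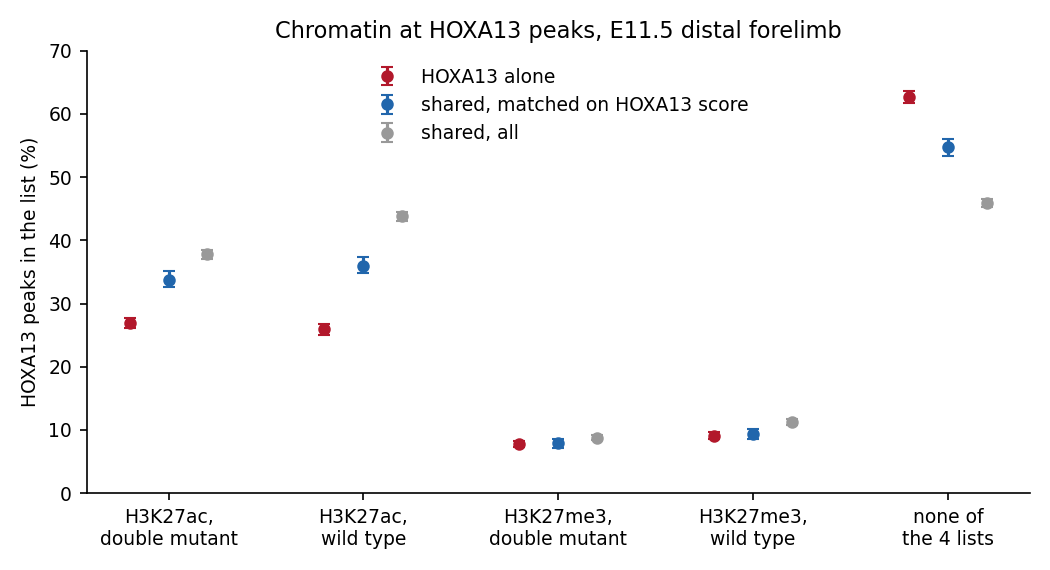
Share of HOXA13 peaks (percent) that overlap each E11.5 mark list, or none of the 4, for HOXA13-alone peaks (red), shared peaks weighted to the same HOXA13 scores (blue) and all shared peaks (grey), with 95% intervals for the counting of peaks. HOXA13-alone peaks sit below matched shared peaks for H3K27ac in both genotypes (26.9% against 33.8% in the double mutant, 25.9% against 36.0% in wild type) and close to them for H3K27me3.

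The gap in H3K27ac was seen in each of the 20 score bins for both genotypes. In the lowest bin, with scores of 50.0 to 51.7, wild-type H3K27ac held 23.2% of HOXA13-alone peaks and 39.8% of shared peaks. That bin holds only 118 shared peaks. In the next to highest, with scores of 141 to 175, wild-type H3K27ac held 31.9% of HOXA13-alone peaks and 37.6% of shared peaks. The gap in the double mutant varied more. It was 23.8% against 35.6% in the lowest bin, 29.7% against 30.9% at scores of 68.3 to 71.4, and 33.3% against 34.1% at 141 to 175. The highest bin is open upwards, and shared peaks in it score higher, so the matched sets still differed in mean HOXA13 score, 89.6 for HOXA13-alone and 102 for shared. With scores limited to 200 or less the difference in wild type was -9.81 points. HOXA13-alone peaks were also narrower at like score, in all 20 bins. Matching on 10 score bins by 5 width bins brought the differences to -4.83 points in the double mutant and -7.88 points in wild type. Mean HOXA13 scores were then 89.6 for HOXA13-alone and 109 for shared peaks, so the scores were matched less closely. Taken chromosome by chromosome, with 5 score bins each, the share in H3K27ac was lower at HOXA13-alone peaks on 18 of 19 autosomes in the double mutant and on 19 of 19 in wild type.

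**Figure D2:**
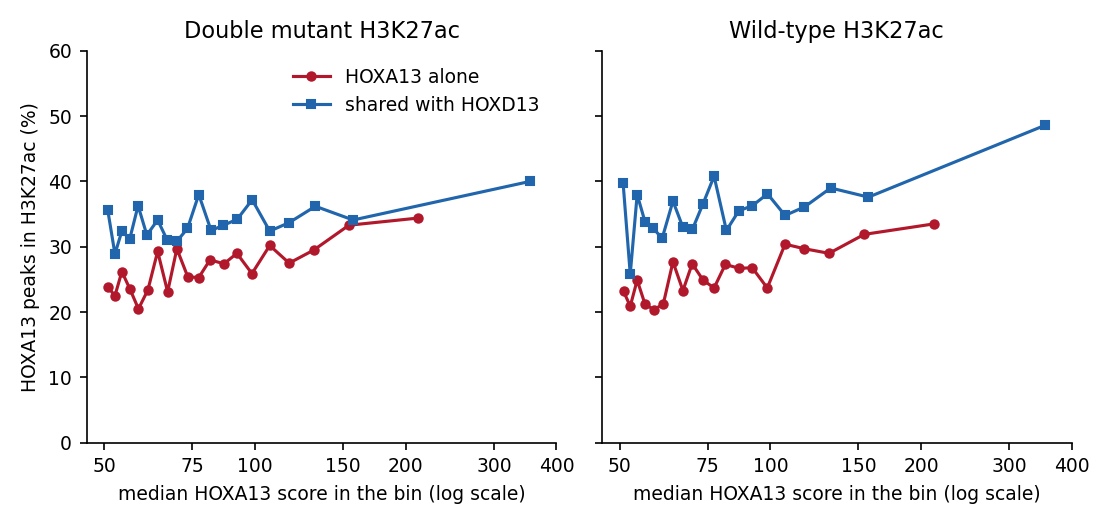
Share of HOXA13 peaks in H3K27ac (percent) against the median HOXA13 score of each of 20 bins (log scale), with double-mutant H3K27ac on the left and wild-type H3K27ac on the right, for HOXA13-alone peaks (red circles) and shared peaks (blue squares). The red points lie below the blue points of the same bin in all 20 bins of both panels, and the highest bin of shared peaks stands at a higher score, since that bin reaches up to 1922.

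Set against the shared peaks whose HOXD13 peaks scored lowest, the gap was smaller. The lowest HOXD13 score quintile held 3924 shared peaks, with HOXD13 scores of 50.0 to 79.5. Weighted to the HOXA13 scores of the HOXA13-alone peaks, 29.3% of them lay in double-mutant H3K27ac and 30.9% in wild-type H3K27ac. HOXA13-alone minus these was -2.38 points in the double mutant (-4.27 to -0.486) and -5.06 points in wild type (-6.97 to -3.16), with mean HOXA13 scores of 89.6 and 90.4. At like HOXA13 score, HOXA13-alone peaks thus lay below even the shared peaks with the lowest HOXD13 scores. Width was not matched here, and against all shared peaks the gap was smaller once it was.

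Where HOXA13-alone peaks did lie in H3K27ac, that H3K27ac had lower scores, and it enclosed them less often than shared peaks of like score and width. The median score of the H3K27ac peaks they met was 397 in the double mutant and 364 in wild type. Among shared peaks matched on HOXA13 score, 63.4% in double-mutant H3K27ac and 63.1% in wild-type H3K27ac lay above these medians, a difference of -13.4 points (-16.1 to -10.7) and -13.1 points (-15.8 to -10.5). HOXA13-alone peaks in H3K27ac were fully enclosed by it in 55.5% of cases in the double mutant and 54.7% in wild type. Over all shared peaks in H3K27ac, without matching, these shares were close, at 55.1% in the double mutant and 55.3% in wild type. Matched on both HOXA13 score and width, shared peaks were enclosed in 63.8% of cases in the double mutant and 64.7% in wild type, so that HOXA13-alone peaks were lower by 8.27 and 10.0 points, with intervals of -11.0 to -5.48 and of -12.7 to -7.30.

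H3K27me3 lay over HOXA13-alone peaks about as often as over shared peaks of like score. The double-mutant list covered 853 HOXA13-alone peaks (7.73%, 7.24 to 8.24%) and 1715 shared peaks (8.74%, 8.35 to 9.14%), against 8.38% of all autosomal HOXA13 peaks. The wild-type list covered 1006 HOXA13-alone peaks (9.11%, 8.59 to 9.67%) and 2204 shared peaks (11.2%, 10.8 to 11.7%), so that 10032 HOXA13-alone peaks lay outside it, as did 89.5% of all autosomal HOXA13 peaks. After matching on HOXA13 score the differences were -0.160 points in the double mutant (-1.02 to 0.702) and -0.213 points in wild type (-1.14 to 0.717). Both intervals include 0. Matched shared peaks lay in H3K27me3 in only 7.89% of cases in the double mutant and 9.33% in wild type. From such low shares, gaps in points cannot be compared in size with those for H3K27ac. Taken per site, the H3K27me3 peaks met had median widths of 4068 bp in the double mutant and 4604 bp in wild type at HOXA13-alone sites, and of 4761 bp and 5440 bp at shared sites, with a wide peak counted once for each site in it. Their median scores at HOXA13-alone sites were 1436 in the double mutant and 2352 in wild type, against 1525 and 2187 at all shared sites, so that without matching the order differed between the genotypes. At like HOXA13 score, 56.8% of matched shared peaks in the double mutant and 56.7% in wild type lay above the HOXA13-alone medians, differences of -6.87 points (-12.6 to -1.16) and -6.74 points (-11.9 to -1.54).

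Most HOXA13-alone sites carried no called mark at all. None of the 4 lists reached 6922 of them (62.7%, 61.8 to 63.6%), against 9013 shared peaks (45.9%, 45.2 to 46.6%), 54.7% of shared peaks after matching and 52.0% of all autosomal HOXA13 peaks. The matched difference was 8.03 points (6.45 to 9.61). HOXA13-alone sites outside wild-type H3K27ac lay a median of 27959 bp from its nearest peak, and those outside wild-type H3K27me3 a median of 76217 bp. For shared peaks these medians were 33195 bp and 80798 bp. Other histone marks were not analysed here.

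The commonest marked state was H3K27ac in both genotypes without H3K27me3, at 2064 HOXA13-alone sites (18.7%), against 26.6% of matched and 29.7% of all shared peaks. H3K27ac in the double mutant only, again without H3K27me3, was found at 513 sites (4.65%), against 3.02% of matched and 3.17% of all shared peaks. H3K27ac in wild type only was found at 467 sites (4.23%), against 5.82% of matched and 9.11% of all shared peaks. H3K27me3 in both genotypes without H3K27ac was found at 463 sites (4.19%), against 4.18% of matched and 4.11% of all shared peaks. Both marks met at 313 HOXA13-alone peaks in the double mutant (2.84%) and at 314 in wild type (2.84%). For matched shared peaks these shares were 3.18% and 3.31%, and for all shared peaks 3.51% and 4.52%. Both marks in 1 cell and each mark in different cells cannot be told apart in bulk lists. A switch between the marks was rare. H3K27ac in wild type only met H3K27me3 in the double mutant only at 3 HOXA13-alone sites (0.0272%), against 31 shared sites (0.158%), 0.0804% of matched shared peaks and 0.111% of all autosomal HOXA13 peaks, and the interval of the matched difference included 0 (-0.205 to 0.0981). H3K27ac in the double mutant only met H3K27me3 in wild type only at 23 HOXA13-alone sites (0.208%), against 53 shared sites (0.270%), 0.244% of matched shared peaks and 0.248% of all, with an interval of the matched difference from -0.246 to 0.175.

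**Figure D3:**
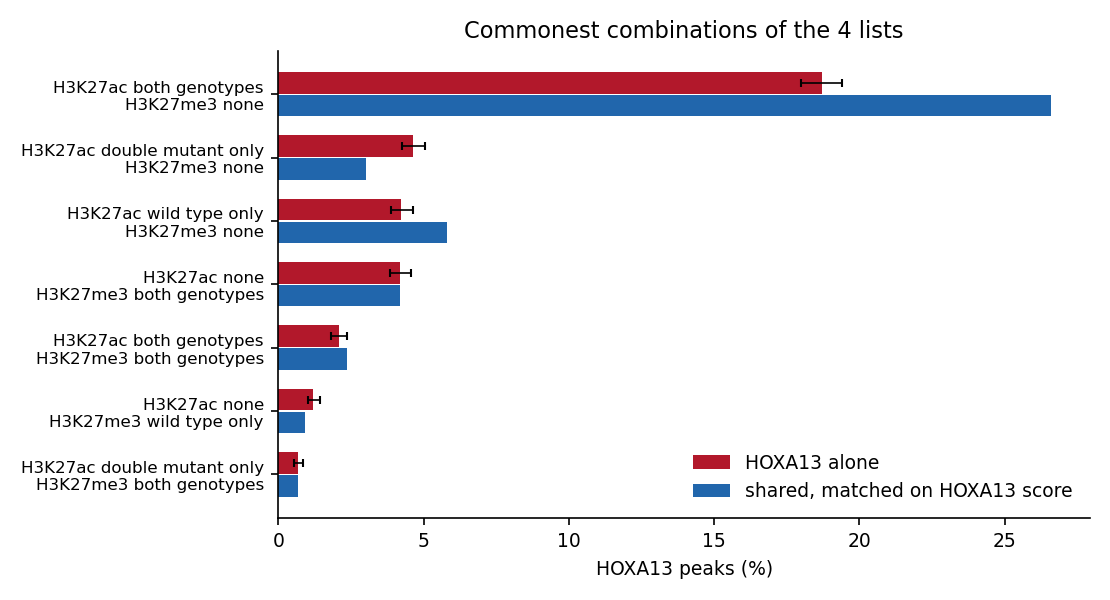
The 7 commonest combinations of the 4 mark lists at HOXA13-alone peaks (red, upper bar, with 95% Wilson intervals) and their share at shared peaks weighted to the same HOXA13 scores (blue, lower bar), in percent of peaks; sites in none of the lists are left out. H3K27ac in both genotypes without H3K27me3 reached 18.7% of HOXA13-alone and 26.6% of matched shared peaks, while H3K27ac in the double mutant only was the more frequent at HOXA13-alone peaks (4.65% and 3.02%).

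The next comparison asked what became of H3K27ac at these sites when both factors were missing. H3K27ac was called at about as many HOXA13-alone sites in the double mutant as in wild type, while shared sites had fewer in the double mutant. Among HOXA13-alone peaks in wild-type H3K27ac, 498 of 2857 had no double-mutant H3K27ac (17.4%, 16.1 to 18.9%), against 1956 of 8589 shared peaks (22.8%, 21.9 to 23.7%) and 21.4% of all autosomal HOXA13 peaks in wild-type H3K27ac. Among HOXA13-alone peaks outside wild-type H3K27ac, 611 of 8181 were in double-mutant H3K27ac (7.47%, 6.92 to 8.06%), against 778 of 11030 shared peaks (7.05%, 6.59 to 7.55%) and 7.23% of all autosomal HOXA13 peaks outside it. Over all autosomal H3K27ac peaks, 15.1% of the wild-type list had no double-mutant peak and 30.4% of the double-mutant list had no wild-type peak.

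The net change in H3K27ac calls, double mutant minus wild type, was 1.02 percentage points at HOXA13-alone peaks, -6.00 points at all shared peaks and -2.18 points (-2.98 to -1.38) at shared peaks of like HOXA13 score. HOXA13-alone peaks thus exceeded matched shared peaks by 3.20 points (2.21 to 4.20). The net change is taken over all peaks of a class, so it also varies with the share that lay in wild-type H3K27ac. That share was 25.9% of HOXA13-alone and 36.0% of matched shared peaks. Among peaks in wild-type H3K27ac, 17.4% of HOXA13-alone and 17.1% of matched shared peaks had none in the double mutant. How much of the difference goes with the starting share was not tested. The double-mutant H3K27ac list is the longer one, with 37433 autosomal peaks against 31220. With both lists cut to equal length by score, the net change was -1.91 points at HOXA13-alone peaks and -4.77 points at matched shared peaks, and the difference between the classes was 2.85 points. The sign of the net change at HOXA13-alone peaks therefore depends on the list length, and the order of the classes does not.

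How the classes compared in lacking double-mutant H3K27ac depended on what was held equal. At like HOXA13 score, 17.1% of shared peaks in wild-type H3K27ac had none in the double mutant, and HOXA13-alone minus shared was 0.331 points (-1.75 to 2.41). When the score of the wild-type H3K27ac peak was matched as well, an alternative chosen after seeing the data, the share of shared peaks was 22.5% and the difference -5.07 points (-7.31 to -2.82). The mean HOXA13 score of the matched shared peaks was then 124, still above that of the HOXA13-alone peaks. With HOXA13 scores limited to 200 or less, also chosen after seeing the data, the means were 87.3 for HOXA13-alone and 88.0 for shared peaks, and the difference was -4.40 points (-6.72 to -2.08), with 17.6% of HOXA13-alone and 22.0% of shared peaks. H3K27ac peaks with low scores were called in wild type only far more often. In the lowest quintile of the H3K27ac score, 261 of 572 HOXA13-alone peaks (45.6%, 41.6 to 49.7%) had no double-mutant H3K27ac, against 59.0% of shared peaks of like HOXA13 score, a difference of -13.4 points (-20.0 to -6.69), with mean HOXA13 scores of 95.2 and 105. In the middle quintile the shares were 9.98% of HOXA13-alone and 17.0% of matched shared peaks, a difference of -7.03 points (-11.9 to -2.17). Mean HOXA13 scores there were 101 for HOXA13-alone and 130.0 for matched shared peaks. In the second quintile the difference of -4.26 points had an interval from -10.6 to 2.05. In the fourth quintile the shares were close, at 2.63% of HOXA13-alone and 2.78% of matched shared peaks, a difference of -0.148 points (-2.45 to 2.15). In the highest, only 5 of 572 HOXA13-alone peaks (0.874%) and 0.179% of matched shared peaks had no double-mutant H3K27ac. That difference was 0.695 points (-0.391 to 1.78).

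**Figure D4:**
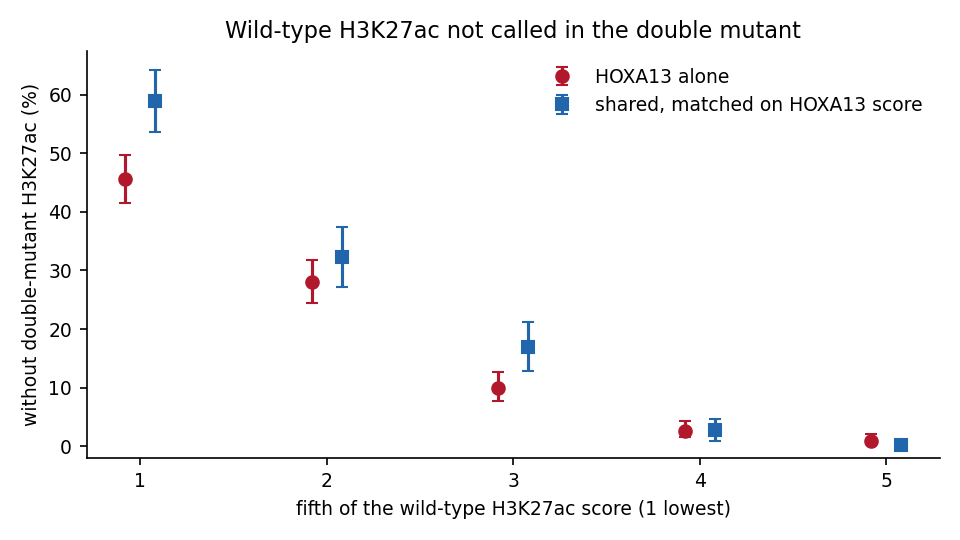
Share of HOXA13 peaks in wild-type H3K27ac that had no double-mutant H3K27ac (percent), by quintile of the score of the wild-type H3K27ac peak (1 is the lowest), for HOXA13-alone peaks (red circles, Wilson 95% intervals) and shared peaks weighted to the same HOXA13 scores (blue squares, 95% intervals). The share falls with the H3K27ac score in both classes, and HOXA13-alone peaks lie lower in the lowest quintile (45.6% and 59.0%) and in the middle one (9.98% and 17.0%). The classes are close in the fourth quintile (2.63% and 2.78%), and in the highest the order is the other way (0.874% and 0.179%).

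At like HOXA13 score, H3K27ac called in the double mutant only was slightly more frequent at HOXA13-alone sites. Without matching, the shares were close, at 7.47% of HOXA13-alone, 7.05% of shared and 7.23% of all autosomal HOXA13 peaks outside wild-type H3K27ac. Matched shared peaks outside wild-type H3K27ac were in double-mutant H3K27ac in 6.15% of cases, and HOXA13-alone minus shared was 1.32 points (0.336 to 2.30). With both H3K27ac lists cut to equal length the difference was 1.02 points (0.203 to 1.84). For HOXA13 peaks that scored 100 or more the interval of this difference included 0, at 1.04 points (-0.448 to 2.53).

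For H3K27me3 called in 1 genotype only, the intervals of the differences at like HOXA13 score included 0. Of HOXA13-alone peaks in wild-type H3K27me3, 219 of 1006 had none in the double mutant (21.8%, 19.3 to 24.4%), against 646 of 2204 shared peaks (29.3%, 27.4 to 31.2%) and 26.9% of all autosomal HOXA13 peaks in that list. The matched share was 20.2% and the difference 1.55 points (-2.74 to 5.83). With width matched too, over 10 score bins, it was 4.89 points (0.303 to 9.48), over the 951 HOXA13-alone peaks whose bins held enough shared peaks. With the X chromosome included, the share at HOXA13-alone peaks was 26.0%, against 23.8% of matched shared peaks. That difference was 2.24 points (-2.16 to 6.63). Outside wild-type H3K27me3, 66 of 10032 HOXA13-alone peaks (0.658%) were in double-mutant H3K27me3, against 157 of 17415 shared peaks (0.902%) and 0.812% of all, and the matched difference was 0.107 points (-0.168 to 0.381).

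HOXA13-alone sites close to a HOXD13 peak lay more often in H3K27ac, and more often in H3K27me3, than distant ones. Sites with the marks together were not counted by distance. The median distance to the nearest HOXD13 peak was 24631 bp, with 595 sites (5.39%) within 1000 bp and 3446 sites (31.2%) farther than 50000 bp. Double-mutant H3K27ac held 46.9% of the sites within 1000 bp (42.9 to 50.9%) and 22.1% of those beyond 50000 bp (20.8 to 23.6%), and wild-type H3K27ac 46.6% (42.6 to 50.6%) and 22.2% (20.8 to 23.6%). For H3K27me3 these shares were 13.6% and 6.67% in the double mutant, and 16.6% and 7.54% in wild type. Median HOXA13 scores were 75.2 in the nearest and 74.1 in the farthest class, so the HOXA13 score hardly moved with distance. Without the sites within 1000 bp of HOXD13, the matched difference from shared peaks was -8.07 points for double-mutant and -11.3 points for wild-type H3K27ac.

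**Figure D5:**
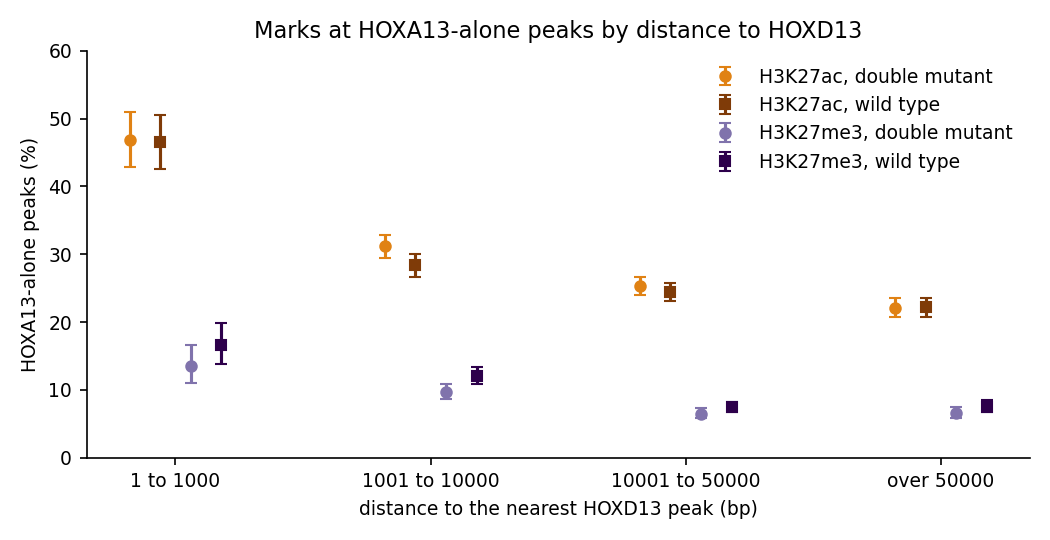
Share of HOXA13-alone peaks (percent, Wilson 95% intervals) in each E11.5 mark list by distance to the nearest HOXD13 peak in bp, with the double mutant (circles) left of wild type (squares) for each mark. H3K27ac falls from the nearest class (46.9% in the double mutant, 46.6% in wild type) to the farthest (22.1% and 22.2%), and H3K27me3 is lower at all distances.

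A minority of HOXA13-alone sites shared an H3K27ac peak with HOXD13. A HOXD13 peak lay elsewhere in the same H3K27ac peak for 348 of 2970 HOXA13-alone sites in double-mutant H3K27ac (11.7%) and for 296 of 2857 in wild-type H3K27ac (10.4%). These counts are a description, since the rule bars HOXD13 from the HOXA13-alone peak itself. HOXA13-alone peaks had a median width of 896 bp, and the wild-type H3K27ac peaks they met 1742 bp. Counted by wild-type H3K27ac peak, 284 held a HOXA13-alone site and a HOXD13 peak, and 2547 held such a site and no HOXD13 peak. Of all 31220 autosomal peaks of that list, 7977 held a shared HOXA13 peak without a HOXA13-alone site, and 19292 no peak of either factor. HOXD13 was thus not more frequent in H3K27ac peaks with HOXA13-alone sites than in the whole list. Of the 296, 27 had no double-mutant H3K27ac (9.12%, 6.34 to 12.9%), against 471 of the 2561 whose wild-type H3K27ac peak held no HOXD13 peak (18.4%, 16.9 to 19.9%). Their H3K27ac peaks had a median score of 2607 and a median width of 3704 bp, against 300.2 and 1640 bp. Matched to them on H3K27ac score, 6.29% of the sites whose H3K27ac peak held no HOXD13 peak had none in the double mutant, and the difference of 2.83 points had an interval from -0.545 to 6.20.

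The strongest HOXA13-alone sites of each chromatin state follow, 3 per state by HOXA13 score. Among sites with H3K27ac in both genotypes and no H3K27me3, the first was at chr7:149765768-149768463, with a HOXA13 score of 1922. It lay in a double-mutant H3K27ac peak of 13734 bp (score 3100) and a wild-type H3K27ac peak of 1331 bp (score 498), 7658 bp from the nearest HOXD13 peak. No other HOXA13-alone peak scored above 608, so this site stood far from the rest. The other two were at chr10:68783550-68785003 (HOXA13 score 463) and at chr9:60733537-60735452 (score 439). Both lay in weak H3K27ac, with scores of 57.1 and 61.7 in the double mutant and of 158 and 194 in wild type, and the chromosome 9 site was only 125 bp from a HOXD13 peak.

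Sites with H3K27ac in wild type only numbered 498. The highest HOXA13 scores among them were at chr17:73261020-73261895 (score 553), at chr3:154330338-154331395 (score 454) and at chr5:32191271-32192559 (score 415). Their wild-type H3K27ac scores were low, at 71.5, 155 and 144. Double-mutant H3K27ac was nearest to the first, at 4439 bp, and was 69075 and 43588 bp away from the others. Sites with H3K27ac in the double mutant only numbered 611, led by chr7:99431548-99432908 (HOXA13 score 392), chr8:117780913-117782149 (score 353) and chr10:6838123-6839269 (score 350.2). Their double-mutant H3K27ac scores of 62.5, 64.7 and 99.0 were near the lowest score of the list, 50.0, and wild-type H3K27ac lay 46149, 47897 and 124806 bp away. In both states these sites sat in weakly scored H3K27ac. That is no trait of strong HOXA13 sites in the wild-type-only state, which consists mostly of sites in low-scoring H3K27ac. Double-mutant H3K27ac was absent at 45.6% of HOXA13-alone sites in the lowest quintile of the wild-type H3K27ac score, and at 0.874% in the highest. For the double-mutant-only state such shares were not taken.

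Within H3K27me3 the picture differed from site to site. Of the 463 sites with H3K27me3 in both genotypes and no H3K27ac, the first was at chr3:96831562-96832616 (HOXA13 score 363), in a double-mutant peak of 1014 bp (score 72.4) and a wild-type peak of 2351 bp (score 351). The second was at chr19:11033664-11034709 (score 268), in peaks of 4022 bp in the double mutant (score 984) and 4030 bp in wild type (score 2367). The next lay at chr15:98605300-98606726 (score 244), in an H3K27me3 domain of 15379 bp in the double mutant and 44192 bp in wild type, and a double-mutant H3K27ac peak stood 6 bp from it. H3K27me3 at the second site was nearly equal in width between the genotypes, while the others were wider in wild type. Over all autosomal H3K27me3 peaks the median width was also larger in wild type, 2235 bp against 1682 bp.

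Both marks met in wild type at 314 sites (2.84%), against 3.31% of matched shared peaks. H3K27me3 was called in 1 genotype only at 285 sites (2.58%). Its parts, wild type only and double mutant only, are set against all autosomal HOXA13 peaks above. The site at chr2:118336829-118337986 (HOXA13 score 454) led both groups, with H3K27ac in the double mutant (score 639) and in wild type (score 457) but H3K27me3 only in wild type (score 547). The next sites with both marks in wild type, at chr5:38292969-38295339 (score 323) and at chr7:4100949-4102161 (score 272), carried all 4 peaks, with H3K27me3 scores of 3100 in both genotypes. The next with H3K27me3 in 1 genotype, at chr13:99361188-99362406 (score 277) and at chr9:60973432-60974479 (score 252), had wild-type H3K27me3 and no other mark peak, with scores of 94.1 and 65.6. The strongest sites outside all 4 lists were at chr13:3494345-3495413 (HOXA13 score 608), at chr8:27674528-27675593 (score 592) and at chr4:77212185-77213300 (score 518), so a high HOXA13 score did not require a called mark.

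HOXA13-alone sites were spread over the genome. They made up between 30.7% (chromosome 18) and 40.1% (chromosome 19) of the HOXA13 peaks of an autosome, and 2147 of the 2290 windows of 1 Mb with an autosomal HOXA13 peak held at least 1, with a median of 4.00. The densest window was on chromosome 2 from 75 to 76 Mb, with 21 HOXA13-alone sites among 69 HOXA13 peaks, of which 9 lay in H3K27ac in each genotype and 10 in none of the lists. The window on chromosome 8 from 117 to 118 Mb held 19 among 56, of which 2 lay in double-mutant and 1 in wild-type H3K27ac, and 15 in none of the lists. The window on chromosome 4 from 95 to 96 Mb held 18 among only 29, of which 4 lay in double-mutant and 5 in wild-type H3K27ac. Of these windows, the one on chromosome 4 was where HOXA13-alone sites outnumbered shared ones.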

How the data were processed

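The deposited files are peak lists with a chromosome, start, end, name and score for each peak. The submitters' processing notes name Bowtie 0.12.7, MACS 1.4 and mm9. Each list was called for 1 library against an input, per its name. The deposited score, the authors' value, is taken as -10 log10 of a p-value (lowest 50.0, or 1e-05). Each group has 1 library. The lists give no read counts, so depth is unknown, and a longer list can reflect depth as well as enrichment.

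The reference at hand is GRCm38, and chromosome 1 of that build ends before 12 of the HOXA13 peaks. No gene, promoter, motif or sequence was therefore assigned to a site.

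Overlap was computed in Python 3.11.15 with numpy 2.4.6 and pandas 2.3.3, and meant at least 1 bp. Shared peaks above 1922, the highest HOXA13-alone score, were left out of matched values (370 peaks). Bins with under 5 shared peaks were not used. Wilson intervals used scipy 1.17.1, and intervals of differences are normal approximations over binned shares. The procedure was run on simulated calls drawn for each peak on its own. That run cannot show how the intervals hold where neighbouring peaks lie in the same mark peak. The sites, comparisons and rules were chosen with earlier results of these data known. Named sites are the 3 highest HOXA13 scores in each of 7 states and the 3 windows with the most sites. Other thresholds, overlaps, list lengths, definitions and matching schemes were tried (12 settings, and 3 chosen after seeing the data).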

Additional observations from a re-analysis of the deposited data

Results flagged for a closer look

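The E10.5 H3K27me3 list, made from forelimb buds of CD1 embryos with another antibody, is outside the comparisons above and was looked at because it holds signal at the same sites. It covered 692 of 11038 HOXA13-alone peaks (6.27%, 5.83 to 6.74%) and 1227 of 19619 shared peaks (6.25%, 5.92 to 6.60%). At like HOXA13 score the shared value was 6.15% and the difference 0.115 points (-0.672 to 0.901). Of the 692 sites, 539 were also in H3K27me3 of both E11.5 genotypes and 90 were in E10.5 H3K27me3 alone. Stage, strain, antibody and dissected part cannot be told apart here.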

How the results depend on the processing

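The 10 comparisons were repeated under 12 other settings and 1 to 3 more chosen after seeing the data. None changed the sign of a difference whose interval excluded 0. For H3K27ac overlap the differences ran from -8.07 to -4.34 points in the double mutant and from -11.3 to -7.59 points in wild type, and for sites in none of the lists from 5.81 to 9.42. HOXA13 scores of 100 or more gave -4.34 points for double-mutant H3K27ac, -7.59 for wild-type H3K27ac, 5.98 for none of the lists and -3.22 for wild-type H3K27me3 absent from the double mutant. Matching on width as well, with 10 score bins, gave -4.83, -7.88 and 5.81 points for the first 3 of these. Matching on the H3K27ac score gave -5.07 points for wild-type H3K27ac absent from the double mutant, or -4.40 with HOXA13 scores up to 200, which otherwise ran from -1.61 to 1.57. The causes were not tested. The net change of H3K27ac calls kept a difference of 2.54 to 3.36 points, and the intervals of both H3K27me3 overlaps included 0 under all 13 settings. No paired analysis was possible because each group holds 1 library. Unknown depth limits all absences of a peak.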
